A study of Drosophila melanogaster with 6 samples.

Results

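Glys, Gbs-76A and fbp are 3 genes of sugar storage and sugar synthesis in Drosophila melanogaster. They were taken as the spots of the deposited ratio table whose only current fly symbol was one of these names. That gave 6 of 16896 spots, 1 clone of 2 neighbouring spots for each gene, and 3 of the 2216 genes measured under a name. They were picked because earlier results of the same arrays placed them on one side of the comparison. Their ratios are therefore given as a description, with no test.

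Glycogen is the branched glucose polymer in which animal cells hold sugar in reserve. Glycogen synthase adds glucose units to the chain and is held inactive by phosphate groups. Protein phosphatase 1, brought to the glycogen particle by a glycogen-binding subunit, removes these groups, while phosphorylase kinase switches on the enzyme that breaks glycogen down. Gluconeogenesis runs the glycolytic route backwards to make glucose phosphates, and fructose-1,6-bisphosphatase catalyses one of its irreversible steps. In the fly, the fat body and muscle are known as main sites of glycogen storage.

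RNA of untreated cells of 2 established embryonic lines, SL2 and Kc167, competed for the same spots on 6 arrays of printed cDNA clones. On 3 arrays, called flipped here, SL2 carried Cy5 and Kc167 carried Cy3. On the other 3, called arrays with Kc167 in Cy5, SL2 carried Cy3. Both lines were kept dense at 22 °C with 20 µg/mL gentamicin, SL2 in CCM3 medium and Kc167 in a Schneider medium with 5% fetal bovine serum. The labels name no genotype, transgene or agent for either line. Line and medium cannot be told apart on any array, and nothing in the labels ties the replicate numbers to separate cultures. P-values thus cover only the spread between these arrays, which may be technical. Ratios are log2 values of SL2 over Kc167, and a negative value means lower in SL2. This direction is likely and not stated: the titles name SL2 first, but no label defines the ratio, and a ratio defined the other way would turn every sign. Base 2 is likewise an assumption. No intensities were used here, so ratios give no level of a gene in either line.

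The flipped arrays held values for 16710 to 16844 spots and the arrays with Kc167 in Cy5 for 15104 to 15885. Both lines are known for blood-cell properties. Of the hemocyte markers, Pxn (1.65 ± 0.10; SE, n = 3) and NimC1 (0.80 ± 0.07) were higher in SL2, and Ppn (-1.14 ± 0.06) and Pvr (-0.43 ± 0.07) were lower. All 4 passed limma's adjusted threshold, as did 60.2% of all 7201 features, and vkg had no value on some arrays and was not tested. A ratio cannot show whether a marker is absent from a line.

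All 3 genes lay below 0 on each of the 6 arrays. Of all 7201 features tested, 24.1% did so, a share to which nothing is added here because this contrast chose the genes. The mean ratio was most negative for Glys, then fbp, then Gbs-76A. Each lay at least 2-fold lower in SL2, as did 3.54% of all features. The ratios came from a complete set of 36 spot values.

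Glys encodes glycogen synthase, the enzyme that lengthens the glycogen chain, and lies on arm 3R. Its ratios were -2.49, -2.51 and -2.16 on the flipped arrays, against -2.14, -2.30 and -2.37 on the arrays with Kc167 in Cy5. The orientations overlapped, and no array stood apart. The mean was -2.33 ± 0.07 (SD, n = 3 averages over the dye orientations), which is 5.02-fold lower in SL2 and 4.40- to 5.69-fold on single arrays. Read as a natural logarithm, the same value would be 10.3-fold. The SD over the 6 single arrays was larger than that of the averages, at 0.16. Among the 2216 named genes Glys had the 10th most negative mean, and its rank on single arrays ran from 6 to 12.

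Gbs-76A, on arm 3L, encodes a glycogen-binding subunit that targets protein phosphatase 1. Its ratios were -1.17, -1.64 and -1.58 on the flipped arrays and -1.76, -1.48 and -1.55 on the arrays with Kc167 in Cy5. The flipped array of replicate 1 was the least negative of the 6, and the array with Kc167 in Cy5 of the same number the most negative. The mean was -1.53 ± 0.06 (SD, n = 3 averages over the dye orientations), or 2.89-fold lower in SL2, with single arrays between 2.24- and 3.39-fold. Those extreme arrays were averaged with each other, and the SD over the 6 single arrays was larger, at 0.20. Its mean ranked 24 among the named genes. The rank lay between 19 and 37 on 5 arrays and was 73 on the flipped array of replicate 1.

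The gene fbp, on arm 2L, encodes fructose-1,6-bisphosphatase. It is not Fbp2, a fat body protein gene with a similar symbol. The ratios of fbp were -1.99, -2.23 and -2.30 on the flipped arrays and -2.32, -2.11 and -1.79 on the arrays with Kc167 in Cy5. The orientations overlapped, and the third array with Kc167 in Cy5 was the least negative. The mean of fbp was -2.12 ± 0.07 (SD, n = 3 averages over the dye orientations), or 4.36-fold lower in SL2. These averages joined -2.32 with -1.99 and -1.79 with -2.30, and the SD over the 6 single arrays was larger, at 0.21. Single arrays lay between 3.45- and 4.99-fold, the mean ranked 11 among the named genes, and ranks on single arrays ran from 9 to 22.

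**Figure D1:**
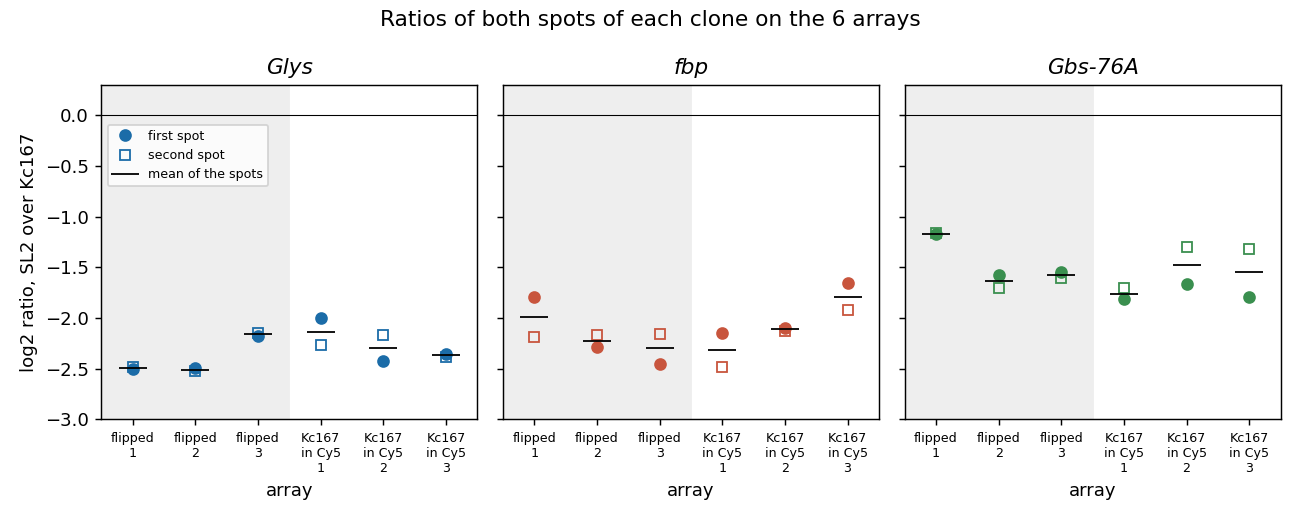
Log2 ratio of SL2 over Kc167 (vertical axis) for Glys, fbp and Gbs-76A on the 3 flipped arrays (grey ground) and the 3 arrays with Kc167 in Cy5; filled circles and open squares are the spots of the clone and black bars their mean. Every spot lies below 0, and the spots of Glys differ least.

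**Figure D2:**
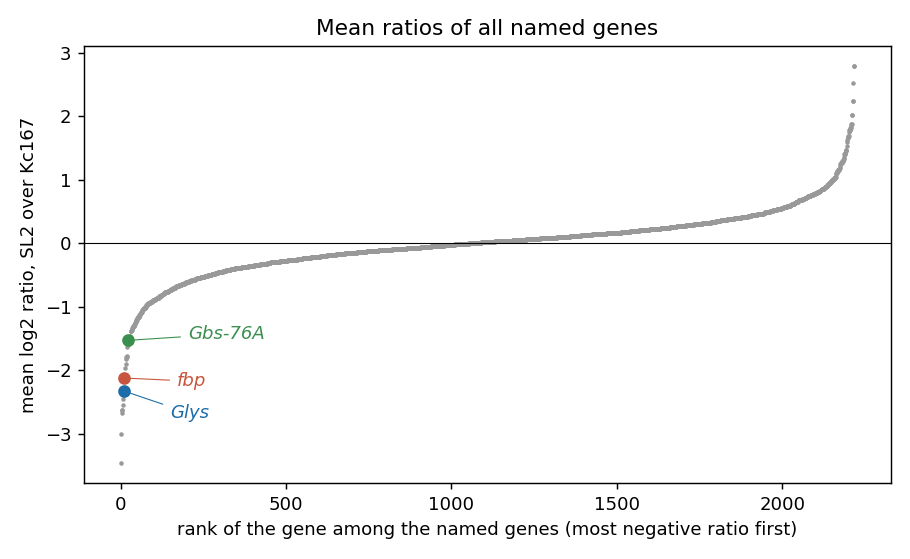
Mean log2 ratio of SL2 over Kc167 (vertical axis) of the 2216 named genes in rank order (horizontal axis), with Glys at rank 10, fbp at rank 11 and Gbs-76A at rank 24 marked. The 3 genes sit in the steep negative end of the curve.

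Gbs-76A differed less between the lines than the enzyme genes did on every array. Its ratio was above that of Glys and above that of fbp on 6 of 6 arrays. The difference of Glys minus Gbs-76A was -0.80 ± 0.08 (SD, n = 3), and that of fbp minus Gbs-76A was -0.59 ± 0.11. Glys and fbp were neighbours in this order. Glys minus fbp was -0.20 ± 0.04 over the 3 averages, but single arrays ran from -0.58 to 0.18 and Glys was lower on 4 of 6. The order of Glys and fbp thus changed with the array. These differences come from the contrast that chose the genes and were not tested.

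The spots of a clone gave a measure of printing and hybridisation error within an array. Over 6824 clones with values at every spot, the median gap between the spots of a clone was 0.14 on the log2 scale. The spots of Glys differed by 0.01 to 0.26, with a median of 0.03, and 0.865% of the clones had a smaller median gap. Those of Gbs-76A differed by 0.01 to 0.47, with a median of 0.12. Its widest gap was on the third array with Kc167 in Cy5, where the spots gave -1.79 and -1.32. The spots of fbp differed by 0.03 to 0.39, with a median of 0.28, and 90.3% of the clones had a smaller one. On the third array with Kc167 in Cy5, the spots of fbp gave -1.65 and -1.92, so that both of them made this its least negative array. The gaps were smaller than the mean ratios of all 3 genes. The SD over the 6 arrays was 0.16 for Glys, 0.20 for Gbs-76A and 0.21 for fbp, against a median of 0.21 over all features. Each gene was measured by 1 clone, so no other clone checks its ratio.

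A dye exchange asks whether a ratio depends on which line carried which dye, a contrast that the choice of genes did not use. The ratio differed between orientations for 9.46% of all features by limma with Benjamini-Hochberg adjustment, and for none of the 3 genes. Glys averaged -2.39 ± 0.20 on the flipped arrays and -2.27 ± 0.12 on the arrays with Kc167 in Cy5 (SD, n = 3 each). The difference, flipped minus Kc167 in Cy5, was -0.12 with a 95% interval of -0.46 to 0.22 (limma adjusted p = 0.64). Gbs-76A averaged -1.46 ± 0.26 and -1.60 ± 0.15 in the same order, with a difference of 0.14 and an interval of -0.24 to 0.52 (limma adjusted p = 0.63). For fbp the means were -2.18 ± 0.16 on the flipped arrays and -2.07 ± 0.27 with Kc167 in Cy5, with a difference of -0.10 and an interval of -0.49 to 0.29 (limma adjusted p = 0.73). By the unadjusted p of limma at the same threshold, none of the 3 differences passed either.

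**Figure D3:**
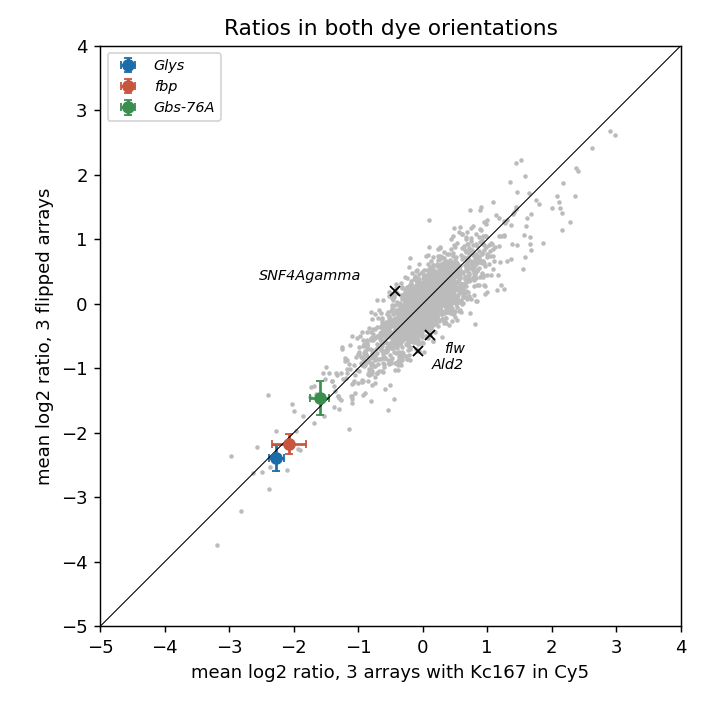
Mean log2 ratio on the 3 flipped arrays (vertical axis) against that on the 3 arrays with Kc167 in Cy5 (horizontal axis) for all named genes (grey), with Glys, fbp and Gbs-76A in colour (error bars are SD, n = 3) and the diagonal of equal ratios. The 3 genes lie within their error bars of the diagonal, while Ald2, flw and SNF4Agamma (crosses) lie off it.

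Whether other genes of glycogen metabolism differed between the lines was asked with a list of 21 symbols, of which 5 genes beside Glys and Gbs-76A were measured. The measured genes of phosphorylase kinase, which promotes glycogen breakdown, are CG7766 and PhKgamma. CG7766, which encodes a regulatory alpha subunit of phosphorylase kinase, had ratios of -1.34, -1.29 and -0.89 on the flipped arrays and -0.95, -0.98 and -0.89 with Kc167 in Cy5. All 6 were below 0, with a mean of -1.06 ± 0.08 (SE, n = 3; 2.08-fold lower in SL2; limma adjusted p = 1.8e-06). PhKgamma, which encodes its catalytic subunit, had -0.46, -0.25 and -0.25 on the flipped arrays and -0.47, -0.54 and -0.56 with Kc167 in Cy5. It was lower in SL2 by a smaller amount, with -0.42 ± 0.06 (limma adjusted p = 0.00032), again below 0 on 6 of 6 arrays.

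Of the catalytic subunits of protein phosphatase 1, the enzyme that Gbs-76A targets, Pp1-87B and flw were measured, and neither passed between the lines. Pp1-87B had a mean of -0.03 ± 0.07 (SE, n = 3; limma adjusted p = 0.74), with arrays from -0.19 to 0.20. For flw the mean was -0.19 ± 0.11 (limma adjusted p = 0.15). Its ratio differed between orientations, at -0.49 on the flipped arrays and 0.11 with Kc167 in Cy5 (limma adjusted p = 0.032). Pgm2b, a relative of the phosphoglucomutases, which interconvert glucose phosphates on the way into and out of glycogen, was higher in SL2. Its ratios ran from 0.68 to 1.17, with a mean of 0.88 ± 0.07 (1.84-fold; limma adjusted p = 4.4e-06). Of these 5 genes 2 were lower in SL2, 1 was higher and 2 did not pass, with a median ratio of -0.19. Over all 7201 features 31.8% were lower and 28.4% higher in SL2, 60.2% in all, with a median of -0.02. The called share of the 5 genes, 60.0%, is close to that of all features. The genes of glycogen phosphorylase and glycogenin were not measured under a gene name and may lie among the clones without one.

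Of 13 gluconeogenesis symbols, 1 gene beside fbp was measured. Got2, the mitochondrial aspartate aminotransferase, which serves the exchange of oxaloacetate with aspartate, was higher in SL2. Its ratios were 0.98, 1.12 and 1.05 on the flipped arrays and 1.13, 0.87 and 0.88 with Kc167 in Cy5. The mean was 2.01-fold higher in SL2 (SE 0.07 on the log2 scale, n = 3; limma adjusted p = 9.2e-07). Got2 and fbp thus lay on opposite sides on every array. The genes of phosphoenolpyruvate carboxykinase, pyruvate carboxylase and glucose-6-phosphatase were not measured under a name.

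The measured genes of the glycolysis list were paralogs of the main enzymes, and cDNA clones of related copies can share signal, which was not tested. Ald2, a relative of aldolase, had a mean of -0.40 ± 0.06 (SE, n = 3; limma adjusted p = 0.00041), but its ratio was -0.73 on the flipped arrays and -0.08 with Kc167 in Cy5, where it did not pass. CG7069, one of 3 measured relatives of pyruvate kinase, was higher in SL2 by a small amount, 0.22 ± 0.07 (limma adjusted p = 0.023). It did not pass without replicate 2 or without replicate 3 (limma adjusted p = 0.12 for each), and turned to -0.01 when the median of neighbouring clones was subtracted. CG2964 (0.05 ± 0.07) and CG12229 (0.13 ± 0.09) did not pass. The glycolysis list thus had 1 gene higher and 1 lower in SL2 of 4 measured, where 60.2% of all features were called, with a median of 0.09. This list is not complete, and named genes outside it were not counted.

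Trehalose, the disaccharide that serves as blood sugar in insects, draws on the same glucose phosphates as glycogen. Treh, which encodes the enzyme that splits trehalose, was lower in SL2 with -0.26 ± 0.08 (SE, n = 3; limma adjusted p = 0.021). The flipped array of replicate 1 gave -0.75 and the other 5 gave -0.25 to -0.04; without that array the ratio was -0.16 and did not pass (limma adjusted p = 0.057). Tps1, which encodes trehalose-6-phosphate synthase, had -0.08 ± 0.08 and did not pass. No gene of the pentose phosphate list was measured under a name.

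The tricarboxylic acid cycle, which takes up the carbon of glycolysis and supplies that of gluconeogenesis, had 4 measured genes of 22 symbols. All 4 passed, against 60.2% of all features, 2 on each side. Lower in SL2 were mAcon2, named as a mitochondrial aconitase (-1.04 ± 0.06; SE, n = 3), and Scsalpha1, a subunit gene of succinyl-CoA synthetase (-0.18 ± 0.07; limma adjusted p = 0.036). Scsalpha1 did not pass with any 1 replicate left out (limma adjusted p between 0.084 and 0.13). The clones of mAcon2 with values on all arrays differed in size, at -1.69 and -0.39. Of its 3 clones, another lacked values on some arrays and was left out. With features kept that had values in at least 2 replicate numbers, the ratio of mAcon2 was -0.9. Ogdh, a subunit gene of the oxoglutarate dehydrogenase complex (0.35 ± 0.07), and Fum4, a fumarase gene (0.45 ± 0.07), were higher in SL2. Without the flipped arrays, Ogdh had 0.21 and did not pass (limma adjusted p = 0.10).

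Of 38 symbols of sugar sensing and of insulin, TOR and adipokinetic hormone signalling, 9 genes were measured, with 2 lower in SL2, 4 higher and 3 that did not pass. That is 66.7% called, against 60.2% of all features, of which 31.8% were lower and 28.4% higher. The list is not complete: other genes of TOR signalling were measured under a name and not counted. The counts of either side thus hold for the listed genes alone. Insulin signalling promotes glycogen synthesis in animals, and it also inactivates the transcription factor foxo. The gene foxo was lower in SL2, with -0.41 ± 0.07 (SE, n = 3; limma adjusted p = 0.00048) and 6 of 6 arrays below 0. Tsc1, which encodes an inhibitor of TOR signalling, was lower too, with -0.83 ± 0.09 (limma adjusted p = 2.1e-05), although its arrays ran from -1.35 to -0.25. Higher in SL2 were Sik3, a salt-inducible kinase gene, with 0.96 ± 0.07 and ratios from 0.82 to 1.03, and ImpL2, whose secreted product binds insulin-like peptides, with 0.59 ± 0.12. Without the flipped arrays, ImpL2 had 0.41 and did not pass (limma adjusted p = 0.062). The gene bigmax encodes the partner of the sugar-sensing factor Mondo and was higher in SL2 with 0.33 ± 0.06 (limma adjusted p = 0.0016). Sik2 was higher by 0.20 ± 0.07 (limma adjusted p = 0.027), but did not pass with any 1 replicate left out (limma adjusted p between 0.059 and 0.11). REPTOR, SNF4Agamma and Crtc did not pass.

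Over the 7 lists together, 25 genes beside Glys, Gbs-76A and fbp were measured, of which 8 were lower in SL2, 9 were higher and 8 did not pass. That is 68.0% called, against 60.2% of all features, and the median ratio was -0.03. None of the 25 had a mean as far below 0 as any of the 3 genes: the most negative were CG7766 with -1.06 and mAcon2 with -1.04. The mean of mAcon2 averages clones at -1.69 and -0.39, while each of the 3 genes rests on 1 clone. Its clone at -1.69 lay below Gbs-76A at -1.53, so the order of these genes depends on this averaging. The 3 genes were chosen for their ratios and the 25 were not, so this order was not tested.

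**Figure D4:**
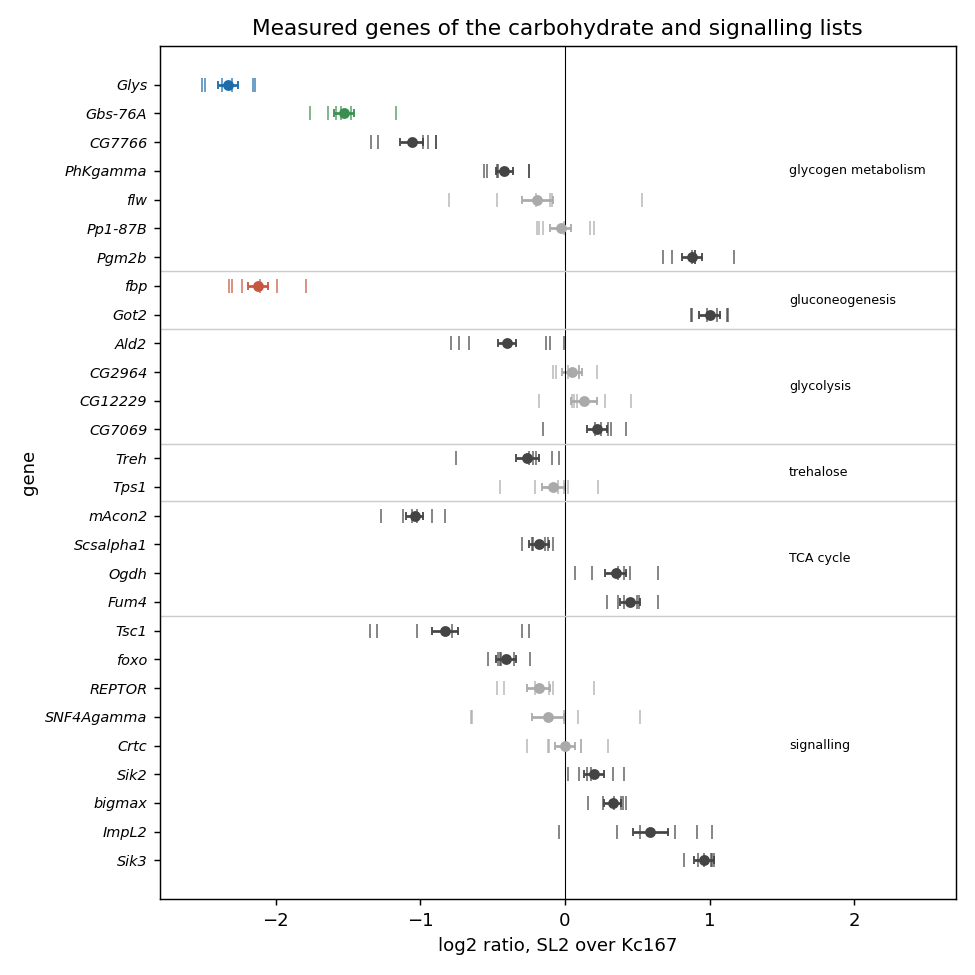
Log2 ratio of SL2 over Kc167 (horizontal axis) of Glys, Gbs-76A, fbp (colour) and the 25 other measured genes of the lists (vertical axis, grouped by list); ticks are the 6 arrays, circles the mean with the SE of limma (n = 3), dark where the adjusted p was under 0.05 and light where it was not. Genes lie on either side of 0 in every list with more than 2 measured genes.

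Of the fat body markers, 1 of 4 measured was lower in SL2, or 25.0%, against 31.8% of all features. The other 3, Fbp2 (0.14 ± 0.07; SE, n = 3), apolpp (0.08 ± 0.09) and Lpin (-0.07 ± 0.09), did not pass. The lipase gene bmm, which releases stored fat in many fly cells, was lower in SL2 with -1.64 ± 0.07 (limma adjusted p = 4.8e-08), and its arrays ran from -1.81 to -1.31.

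The named genes whose ratios were nearest to those of each gene were found by the mean absolute difference over the 6 arrays, among 2215 other named genes. Nearest to Glys were Fs(2)Ket at 0.19, Cbs at 0.24 and Mvl at 0.25, with mean ratios of -2.34, -2.40 and -2.12. These encode importin beta, cystathionine beta-synthase and a metal ion transporter. Glys had fbp as its 5th nearest gene, at 0.31, and Gbs-76A as its 21st, at 0.80. Nearest to fbp were CG10863 at 0.18, Mvl at 0.28 and Fs(2)Ket at 0.31, and Glys was its 5th nearest. Nearest to Gbs-76A were CG1628 at 0.14, yps, a Y-box protein gene, at 0.15, and Tob at 0.18. This likeness is one of ratio size on 6 arrays that share both RNA sources. Glys, fbp and Gbs-76A were chosen on these same ratios, so their nearness to each other follows in part from that choice and was not tested.

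The 3 genes lie on different arms, and the nearest measured genes beside them had smaller ratios. These are not adjacent genes, as 1 to 10 annotated genes lay between. Around Glys, dpr9 (0.00 ± 0.07; SE, n = 3) did not pass and Kpc1 was lower in SL2 with -0.29 ± 0.07 (limma adjusted p = 0.0039). Beside Gbs-76A, with 4 annotated genes between, Aldh7A1, an aldehyde dehydrogenase gene, was lower in SL2 with -1.08 ± 0.07 (limma adjusted p = 6.5e-07), while CG33062 on the other side had -0.06 ± 0.06 and did not pass. Around fbp, CG10628 was lower with -0.23 ± 0.08 (limma adjusted p = 0.039) and CdGAPr, at -0.11 ± 0.07, did not pass.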

How the data were processed

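The scanner was a ScanArray 4000, and spots were quantified with QuantArray version 3 with no background subtracted, as the labels say. The deposited values are taken as log2 ratios; per the labels the authors computed them after a normalisation whose method is not given in the sources used here, like base and direction. Column medians lay between -0.024 and 0.002. Columns of opposite orientation correlated across features (0.64 to 0.83), so no sign was turned. Spots of a clone, then clones of a gene, were averaged; all 5666 spots with 1 symbol were matched by Entrez identifier to RefSeq names of Release 6 plus ISO1 MT. The 7201 features with values on all 6 arrays were kept. Same-numbered arrays of opposite orientation were averaged. A two-sided test of the mean (n = 3) against 0 was made with limma 3.58.1 (R 4.3.3); p-values were adjusted by Benjamini-Hochberg over all features, with a threshold of 0.05. Orientation differences within numbers were tested likewise. The limma test of the mean against 0 was tried on simulated data. Arrays limit the precision; no intensities were used.

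The members, gene lists and tests were chosen with earlier results of these data known. Of 136 pathway list symbols, 130 matched a current gene; the lists are not complete, and 1 item of glycogen metabolism is not reported here. Named are the 3 genes, all measured genes of the carbohydrate lists, up to 4 called genes of each other list, the 3 nearest genes in pattern and the measured neighbours; the other list genes given (bigmax, Sik2, REPTOR, SNF4Agamma, Crtc and fat body markers that did not pass) fall outside this rule and were added after their values were seen. Alternatives covered centring, scaling, quantile normalisation, dye terms, the replicate block, each orientation alone, neighbouring clones, single clones, incomplete features, variance pooling, the base and each replicate left out.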

Additional observations from a re-analysis of the deposited data

Results flagged for a closer look

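Of the genes named above, 4 had ratios that differed between the dye orientations by limma on the differences within replicate numbers, as 9.46% of all features did. Flipped minus Kc167 in Cy5 was -0.65 for Ald2, with means of -0.73 ± 0.07 on the flipped arrays and -0.08 ± 0.07 with Kc167 in Cy5 (SD, n = 3 each; limma adjusted p = 0.023). For flw it was -0.60, with -0.49 ± 0.30 and 0.11 ± 0.36 in the same order (limma adjusted p = 0.032). For SNF4Agamma it was 0.64, with 0.20 ± 0.28 and -0.44 ± 0.37 (limma adjusted p = 0.023). For the hemocyte gene Pxn it was -1.02, with 1.14 ± 0.44 and 2.16 ± 0.31 (limma adjusted p = 0.015). Glys, Gbs-76A and fbp were not among them.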

How the results depend on the processing

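The ratios of Glys, Gbs-76A and fbp stayed negative under all 13 alternatives run for each. Every spot of these genes lay below 0, so leaving out arrays, adding a dye term or changing the base could not turn a sign. The genes were chosen on this contrast, so the alternatives show only how far each value moved. Read as natural logarithms, the ratios of Glys, Gbs-76A and fbp became -3.36, -2.21 and -3.06 on the log2 scale. Gbs-76A was -1.60 with Kc167 in Cy5 alone, -1.46 on the flipped arrays alone and -1.46 after subtraction of the median of the 24 nearest clones, which gave -2.20 for fbp. With a replicate or the first flipped array left out, Glys ran from -2.36 to -2.29, Gbs-76A from -1.60 to -1.51 and fbp from -2.17 to -2.10. Orientation differences passed under none of the 7 alternatives; left-out replicates gave -0.28 to -0.0017 for Glys, -0.09 to 0.29 for Gbs-76A and -0.32 to 0.10 for fbp, so the sign for Gbs-76A and fbp depended on the replicates kept.

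Of the 25 list genes, 8 lower and 9 higher in SL2 became 5 and 4 without pooling of variance, and 5 were higher with Kc167 in Cy5 alone; with a replicate or the first flipped array left out, 6 to 9 were lower and 7 to 9 higher. Without pooling, 1926 of 7201 features passed, against 4332. Only CG7069 changed sign among the called list genes, to -0.01 after subtraction of neighbouring clones; the causes were not tested. Deviations of same-numbered arrays correlated at -0.071, 0.11 and -0.097, and those of arrays with different numbers at -0.182 to 0.2. Array noise can hide a shared source, so these values cannot decide whether the numbers pair the arrays. With the replicate number as a block the counts were again 8 and 9, and 4409 features passed. With no signal over background at hand, dim spots were neither found nor removed.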
